A study of Mus musculus with 8 samples.

Results

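The CCN family and YAP target genes are 10 genes: the secreted CCN proteins Ccn1 to Ccn5 (older names Cyr61, Ctgf, Nov, Wisp1 and Wisp2), the YAP target genes Ankrd1, Amotl2, Lats2 and Axl, and the gene of the coactivator itself, Yap1. They were chosen by gene name, with earlier results from these arrays known, among them the low Ccn2 signals at 12 and 24 h. All values of these 10 genes are therefore given as a description, without p-values, and the number of them that a fit over all probe sets called is printed only beside its background. They are 10 of the 12393 genes that the platform annotation names, with 21 of the 22626 probe sets, a probe set being the group of oligonucleotides that reports 1 transcript. A further probe set is shared between Lats2 and Xpo4 and was assigned to neither. The samples were TTE3 cells, a mouse testicular Sertoli line carrying a temperature-sensitive SV40 large T-antigen transgene, whose promoter the labels do not give. The 4 groups were cells kept for 0, 6, 12 or 24 h at the nonpermissive temperature of 39 °C, with 2 arrays each and 8 in all. The labels do not give the culture temperature before 0 h, so time at 39 °C, any change of temperature and the state of the T-antigen cannot be told apart. Whether both arrays of a time stem from different cultures is not in the labels, and their spread may be technical.

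YAP and its paralog TAZ (gene Wwtr1) are transcriptional coactivators that bind DNA through the TEAD factors. In the Hippo pathway the kinases MST1 and MST2 (genes Stk4 and Stk3), with the scaffold SAV1, activate LATS1 and LATS2, which phosphorylate YAP and TAZ and hold them in the cytoplasm. CCN1 and CCN2 are matricellular proteins that bind integrins and heparan sulfate proteoglycans, and their genes respond quickly to YAP, to serum and to actin tension. Ankrd1 encodes a nuclear ankyrin repeat protein, and Amotl2 an angiomotin-like junction protein that binds YAP. Lats2 and Amotl2 are both targets and inhibitors of YAP. Axl is a receptor tyrosine kinase of the TAM family, which Sertoli cells use to engulf dying germ cells and residual bodies. The arrays measured mRNA, not the phosphorylation or location of YAP.

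RefSeq promoter windows of 300 bases, from 250 before to 50 after a start site on GRCm38.p6, were found for 6 of the 10 genes, and none was found for Ccn2, Ccn3, Ccn4 and Ccn5. They were searched on both strands for GGAATG, the core letters that TEAD factors bind. All 6 genes had it in a window (6 of 7 windows, Lats2 having a pair of them), while 14.7% of all 32851 promoter windows held it. These genes were picked largely because they are known YAP targets, so the share is a description. The 3 windows below belong to genes whose signals moved by at least 1 log2 unit over the time course, with GGAATG or its reverse complement in capitals. The windows lie at chr3:145649936-145650235 on the minus strand for Ccn1, at chr19:36119795-36120094 on the minus strand for Ankrd1 and at chr9:102717554-102717853 on the plus strand for Amotl2.
Ccn1: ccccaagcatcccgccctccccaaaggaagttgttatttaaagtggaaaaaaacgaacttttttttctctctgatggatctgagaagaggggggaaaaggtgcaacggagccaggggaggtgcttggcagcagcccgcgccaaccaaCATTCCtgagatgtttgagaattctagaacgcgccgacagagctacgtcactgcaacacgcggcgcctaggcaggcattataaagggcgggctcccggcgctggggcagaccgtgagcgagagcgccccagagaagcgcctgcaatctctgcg
Ankrd1: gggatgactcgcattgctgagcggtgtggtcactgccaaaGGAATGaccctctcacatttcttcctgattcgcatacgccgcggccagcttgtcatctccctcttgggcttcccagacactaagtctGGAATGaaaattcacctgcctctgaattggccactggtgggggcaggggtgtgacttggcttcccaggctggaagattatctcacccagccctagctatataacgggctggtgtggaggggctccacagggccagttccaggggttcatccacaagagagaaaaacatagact
Amotl2: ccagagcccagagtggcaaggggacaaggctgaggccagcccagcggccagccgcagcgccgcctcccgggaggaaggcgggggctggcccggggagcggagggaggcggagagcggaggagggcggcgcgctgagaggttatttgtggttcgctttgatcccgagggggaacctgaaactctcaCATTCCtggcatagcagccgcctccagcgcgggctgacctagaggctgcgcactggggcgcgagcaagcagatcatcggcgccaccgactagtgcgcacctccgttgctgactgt
The match of Ccn1 begins 103 bases before the start site and that of Amotl2 65 bases before it, both as the reverse complement. Ankrd1 has GGAATG at 210 and 123 bases before its start. In Yap1 the letters begin 141 bases and in Axl 233 bases before the start, and in 1 Lats2 window they begin just after it. The start sites of Ccn1 and Ankrd1 are the annotated starts of the genes, while those used for Amotl2, Lats2, Axl and Yap1 are not. None of the 7 windows held the AP-1 letters TGANTCA, present in 7.81% of all windows, or the CArG box bound by the serum response factor SRF, present in 1.63%.

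Signals are the deposited intensities in arbitrary units, and signals of different probe sets are not compared with each other. Log2 differences were computed on log2(signal + 21.9), where 21.9 is the 20th percentile of all values, and folds are 2 to the power of them. Errors after ± are standard errors of the fit over all 8 arrays, unless SD is named. Of the 21 probe sets, 16 had a mean log2 value at or above 6.58, the 40th percentile of all probe sets, and entered the fit. The 5 that did not are the single Ccn5 probe set, 3 of 6 for Lats2 and 1 of 2 for Axl.

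Ccn2, the connective tissue growth factor gene, was the member whose signal was furthest below its 0 h level. Probe set 1416953_at read 2608 and 2587 at 0 h, 1550 and 1429 at 6 h, 514 and 530 at 12 h, and 442 and 478 at 24 h. The arrays of each time lay wholly below those of the time before. Signal was 1.73-fold below 0 h at 6 h (log2 difference -0.79 ± 0.10), 4.81-fold below at 12 h (-2.27 ± 0.10) and 5.44-fold below at 24 h (-2.44 ± 0.10). Most of the difference lay between 6 and 12 h (-1.47 ± 0.10), and the step between 12 and 24 h was small (-0.18 ± 0.10). Among 13576 probe sets in the fit, 2 had lower log2 differences than Ccn2 at 24 h, where it ranked number 3 from the lowest, as it did at 12 h. In a bulk sample, fewer cells carrying a transcript and less transcript per cell cannot be told apart.

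Ccn1, the gene of the angiogenic inducer CYR61, was lowest at 12 h. Its probe set 1416039_x_at, of a kind whose oligonucleotides can also match other transcripts, read 3497 and 3161 at 0 h, 1492 and 1570 at 6 h, 1059 and 1283 at 12 h, and 1352 and 1323 at 24 h. Probe set 1438133_a_at read 1773 and 1793 at 0 h, 1208 and 1234 at 6 h, 700.1 and 723 at 12 h, and 838 and 985 at 24 h. On both, all arrays after 0 h lay below the 0 h arrays, and the 24 h arrays lay above the 12 h arrays. The 2 probe sets differed in how much of the drop came early. At 6 h they stood 2.16-fold (-1.11 ± 0.11) and 1.45-fold (-0.54 ± 0.11) below 0 h, at 12 h 2.82-fold (-1.49 ± 0.11) and 2.46-fold (-1.30 ± 0.11), and at 24 h 2.46-fold (-1.30 ± 0.11) and 1.94-fold (-0.96 ± 0.11). The step between 12 and 24 h was upward, by 0.19 ± 0.11 and 0.34 ± 0.11 on the log2 scale.

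The other CCN genes moved less. Ccn3, which encodes the growth-inhibiting family member NOV, read 509.8 and 464 at 0 h, 451 and 440 at 6 h, 356 and 345 at 12 h, and 449 and 404 at 24 h on 1426852_x_at. Its log2 differences were -0.12 ± 0.12 at 6 h, -0.45 ± 0.12 at 12 h and -0.18 ± 0.12 at 24 h. Both 12 h arrays lay below all others. On the second Ccn3 probe set, 1426851_a_at, the 2 arrays at 12 h disagreed, at 113 and 215, and the difference there was -0.77 ± 0.25.

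Ccn4, a WNT-induced member of the family, went the other way at first. Probe set 1448594_at read 1114 and 1084 at 0 h, 1220 and 1588 at 6 h, 1322 and 1258 at 12 h, and 940.0 and 972 at 24 h. The second, 1448593_at, read 873 and 911 at 0 h, 1358 and 1135 at 6 h, 1231 and 1051 at 12 h, and 811 and 862 at 24 h. On both probe sets the 6 and 12 h arrays lay above the 0 h arrays and the 24 h arrays below them. The log2 differences of the 2 probe sets were 0.34 ± 0.12 and 0.47 ± 0.12 at 6 h, 0.23 ± 0.12 and 0.34 ± 0.12 at 12 h, and -0.20 ± 0.12 and -0.09 ± 0.12 at 24 h. Ccn5, the member that lacks the C-terminal cystine knot module, stayed between 14.9 and 100.3 units on all 8 arrays. The arrays of every time overlapped with those of every other time, so no course could be read at this signal.

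**Figure D1:**
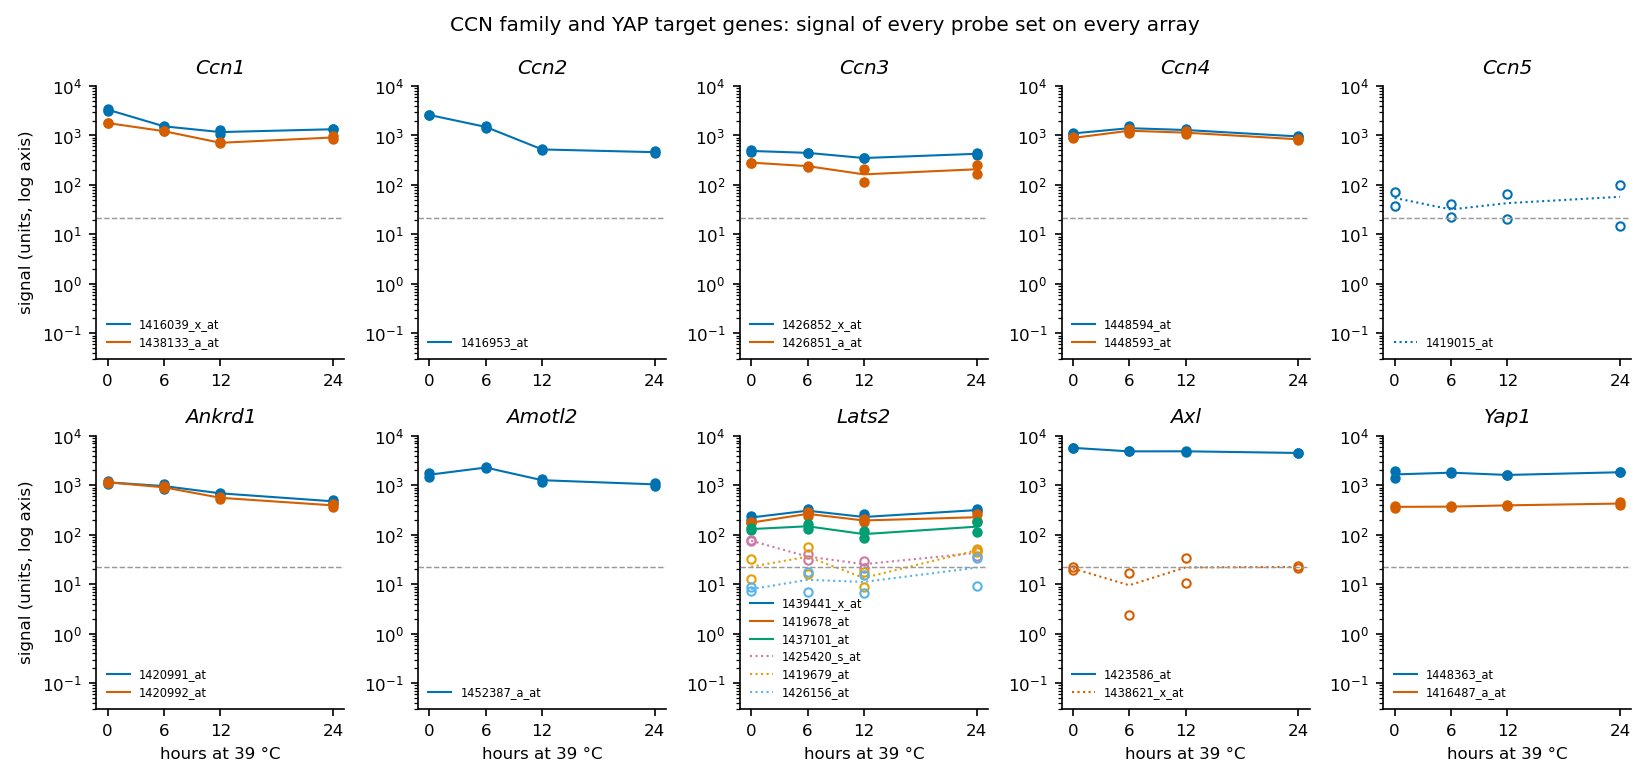
Signal of each probe set (vertical axis, units, log scale) against hours at 39 °C, 1 panel per gene. Each point is 1 array and each line joins the means of 2 arrays, with open points and dotted lines for the 5 probe sets below the filter and a dashed grey line at the offset of 21.9 units. Ccn2 and Ankrd1 slope downward, and Ccn1 drops until 12 h and is higher again at 24 h. Amotl2 peaks at 6 h, and Axl and Yap1 run nearly level.

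Ankrd1, the ankyrin repeat gene, had a lower mean at each later time. Probe set 1420991_at read 1250 and 1048 at 0 h, 1070 and 859 at 6 h, 680.3 and 696 at 12 h, and 507 and 442 at 24 h. Probe set 1420992_at read 1178 and 1126 at 0 h, 865 and 956 at 6 h, 538 and 579 at 12 h, and 364 and 422 at 24 h. The 6 h arrays overlapped with 0 h on the first probe set and lay below it on the second, while at 12 h and again at 24 h all arrays lay below those of the earlier times. At 6 h the log2 differences were -0.25 ± 0.14 and -0.33 ± 0.12, at 12 h -0.72 ± 0.14 and -1.02 ± 0.12, and at 24 h -1.23 ± 0.14 and -1.50 ± 0.12, that is 2.35-fold and 2.83-fold below 0 h. The step between 12 and 24 h was -0.52 ± 0.14 and -0.49 ± 0.12, where Ccn1 stepped upward.

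Amotl2, an angiomotin family gene, was first higher and then lower. Its probe set 1452387_a_at read 1806 and 1472 at 0 h, 2212 and 2359 at 6 h, 1358 and 1179 at 12 h, and 987 and 1102 at 24 h. Both 6 h arrays were above all other arrays, and both 24 h arrays were below all of them. The log2 difference was 0.48 ± 0.12 at 6 h, -0.36 ± 0.12 at 12 h and -0.63 ± 0.12 at 24 h, 1.55-fold below 0 h. Between 6 and 12 h alone it was -0.84 ± 0.12.

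**Figure D2:**
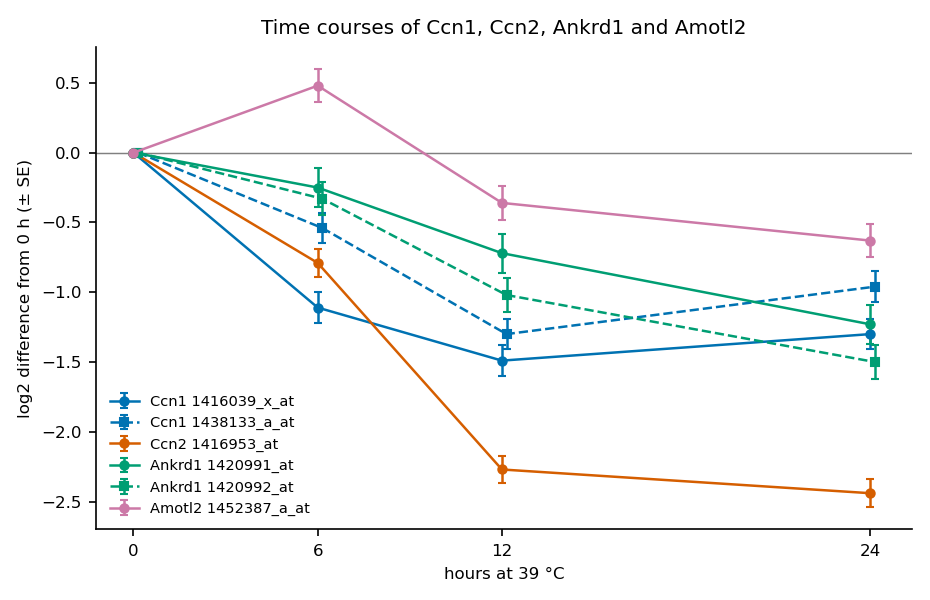
Log2 difference from 0 h (vertical axis, ± SE of the fit) against hours at 39 °C for the 4 genes that spanned at least 1 log2 unit between time means, 1 line per probe set. Ccn2 reached -2.27 by 12 h and -2.44 at 24 h, Ccn1 was lowest at 12 h, Ankrd1 was lower at each later time, and Amotl2 stood at 0.48 at 6 h before it dropped below 0.

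Lats2, the gene of the kinase that inactivates YAP, had 6 probe sets of its own, 3 of them too dim for the fit. Its brightest is of the kind whose oligonucleotides can also match other transcripts. The brightest, 1439441_x_at, read 203 and 244 at 0 h, 280.4 and 334 at 6 h, 200.3 and 258 at 12 h, and 304 and 327 at 24 h. The 6 and 24 h arrays lay above the 0 h arrays, and the 12 h arrays overlapped with them. Its log2 differences were 0.42 ± 0.17 at 6 h, 0.03 ± 0.17 at 12 h and 0.46 ± 0.17 at 24 h. Probe set 1419678_at followed the same course, with 0.53 ± 0.18, 0.13 ± 0.18 and 0.32 ± 0.18 at the 3 later times. On the third in the fit, 1437101_at, the differences of 0.16 ± 0.24, -0.30 ± 0.24 and 0.11 ± 0.24 stayed within 1.5 standard errors of 0. Of the 3 below the filter, 1425420_s_at was lower on all later arrays (21.4 to 49.5 units) than on the 0 h arrays (73.4 and 78.1 units), against the direction of the brighter probe sets. The remaining pair read between 6.6 and 56 units. The probe set shared with Xpo4, 1421055_at, was in the fit, with differences of -0.14 ± 0.14, -0.42 ± 0.14 and -0.35 ± 0.14. Its 12 and 24 h arrays lay below the 0 h arrays, and which of the genes it reports cannot be told.

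Axl, the TAM receptor, was bright and nearly level. Probe set 1423586_at read 5735 and 5704 at 0 h, 4847 and 4862 at 6 h, 4918 and 4822 at 12 h, and 4497 and 4513 at 24 h. All later arrays were below the 0 h arrays, by 1.18-fold at 6 h (log2 difference -0.24 ± 0.08), 1.17-fold at 12 h (-0.23 ± 0.08) and 1.27-fold at 24 h (-0.34 ± 0.08). The second Axl probe set, 1438621_x_at, did not exceed 33.3 units on any array. Yap1 itself showed the smallest span of the members in the fit. Probe set 1448363_at read 1405 and 1915 at 0 h, 1765 and 1835 at 6 h, 1641 and 1598 at 12 h, and 1828 and 1848 at 24 h, so the 0 h arrays spanned the later ones. Its log2 differences were 0.13 ± 0.13, -0.02 ± 0.13 and 0.16 ± 0.13, and those of 1416487_a_at were 0.01 ± 0.13, 0.10 ± 0.13 and 0.21 ± 0.13 at 6, 12 and 24 h. Without 0 h replicate 1 the differences of 1448363_at were -0.09 at 6 h, -0.24 at 12 h and -0.06 at 24 h, and without 0 h replicate 2 they were 0.35, 0.20 and 0.38.

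**Figure D3:**
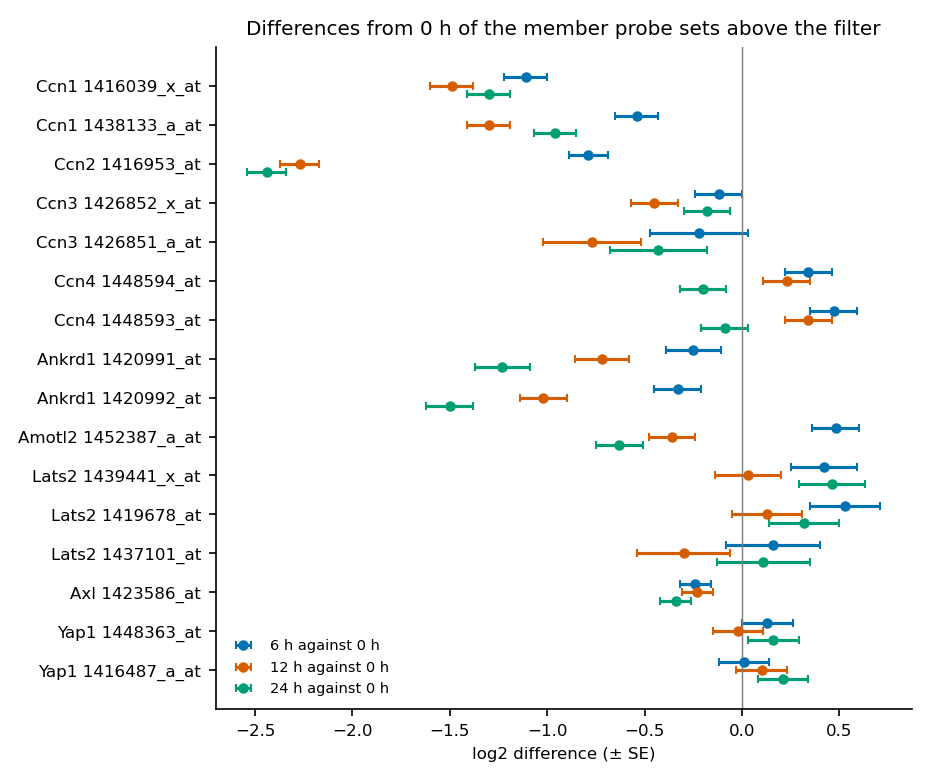
Log2 difference from 0 h (horizontal axis, ± SE of the fit) of the 16 member probe sets in the fit, with 6, 12 and 24 h as separate points on each row. The points of Ccn1, Ccn2, Ccn3, Ankrd1 and Axl lie left of 0 at all 3 times. Those of Ccn4, Amotl2 and Lats2 lie on both sides of 0, and those of Yap1 stay between -0.02 and 0.21.

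In the fit over all probe sets, limma's moderated test with Benjamini-Hochberg adjustment called at adjusted p below 0.05, 2 of the 16 member probe sets were higher and 3 lower at 6 h, where 18.0% of all 13576 were called in either direction. At 12 h 0 were called higher and 7 lower, where 24.0% of all were called, and at 24 h again 0 higher and 7 lower, where 32.9% were called. At an unadjusted p below 0.05, limma put 5 probe sets higher at 6 h, 1 at 12 h and 1 at 24 h, with no share of all probe sets computed at that threshold. Since the members were picked with these results known and probe sets of a gene share their transcript, nothing is read from these counts.

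The genes whose course was most like that of a member were found by Pearson's r over the 8 arrays, with each of 7707 genes represented by its brightest probe set in the fit. Points of the same time share a culture condition, so r is a description. For Ccn2 these were Cdv3 (r = 0.995), the ribosome assembly gene Pes1 (0.991) and Zcchc3 (0.989). For Ccn1 they were Glis2, a Krüppel-like zinc finger gene (0.992), Bcap29 (0.987) and Eif2s3y (0.985). Ankrd1 was closest to Wdr74 (0.995), Ptpmt1 (0.992) and Sertad2 (0.989), and Amotl2 to Ece2 (0.976), 1810055G02Rik (0.971) and Ints6 (0.967). The other members were not among the nearest courses to Ccn2. Ankrd1 ranked number 207 in likeness to Ccn2 (r = 0.92), Ccn1 number 417 (0.87) and Axl number 503 (0.85). Ccn3 ranked number 971 (0.74) and Amotl2 number 1026 (0.73). Ccn4, Yap1 and Lats2 had r = 0.21, -0.15 and -0.27 with Ccn2.

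Other genes of the pathway came from 5 lists of 105 genes, none of them members, of which 69 were in the fit with 1 probe set each. The lists too were chosen with earlier results of these data known, so their counts and p-values describe these arrays only. Most genes of the Hippo pathway and YAP partner list did not pass at any of the 3 times. Of its 25 genes in the fit, 0 rose and 4 fell at 6 h, 0 rose and 7 fell at 12 h, and 1 rose and 6 fell at 24 h, so that 21, 18 and 18 did not pass. Among all 7707 genes, 9.15% rose and 9.33% fell at 6 h, 13.3% rose and 12.0% fell at 12 h, and 18.6% rose and 16.6% fell at 24 h. At an unadjusted p below 0.05 in limma, 4 genes of the list were higher at 6 h, 3 at 12 h and 3 at 24 h. The share of all genes at that unadjusted threshold was not computed, so nothing is read from these 3 counts. The list's median log2 differences were -0.12, -0.15 and -0.13 at the 3 times, where those of all genes were 0.01, 0.02 and 0.02. Map4k4, named here after its values were seen, passed at no time by its brightest probe set (0.09 ± 0.11 at 12 h). A dimmer one was called lower at 12 h, where its 3 probe sets ranged from -0.64 to 0.09. Over the 4 times the F-test called 36 of the 69 genes and 42.0% of all genes.

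Wwtr1, the gene of TAZ, read 2329 and 2329 units at 6 h and 2207 and 2409 at 12 h, against 2900.4 and 3074 at 0 h. It fell at both times, by 0.36 ± 0.09 on the log2 scale at 6 h (adjusted p = 0.0213) and by 0.37 ± 0.09 at 12 h (adjusted p = 0.0138). Both calls were lost when either 0 h array was left out, at adjusted p up to 0.162 at 6 h and 0.122 at 12 h. Tead2, a DNA-binding partner, passed narrowly at 6 h (-0.43 ± 0.14, adjusted p = 0.0495, and 0.326 without 0 h replicate 1) and at 12 h (-0.45 ± 0.14, adjusted p = 0.0343, and 0.258 without that array). Tead3 and the kinase gene Stk4 passed at no time, with largest differences of 0.39 ± 0.26 and 0.28 ± 0.20, both at 12 h. Tead1 (30.1 to 93.4 units) and Tead4 (8.8 to 52.2 units) were too dim for the fit. Stk3 had no probe set of its own in the annotation.

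Limd1, a LIM adaptor gene named here after its values were seen, was the 1 gene of the list that rose, at 24 h (0.38 ± 0.12, adjusted p = 0.03). That call was lost when any 1 of the 0 or 24 h arrays was left out (adjusted p = 0.0919 to 0.162), without a variance trend (adjusted p = 0.0513) and with arrays centred on their medians (adjusted p = 0.127). Wwc1, the gene of the scaffold KIBRA, which promotes LATS activity, read 791 and 723 units at 24 h, against 1756 and 1725 at 0 h, a fall of 1.18 ± 0.15 on the log2 scale (adjusted p = 0.000146). Its paralog Wwc2 fell at 24 h too (-0.46 ± 0.14, adjusted p = 0.0271), but not without 0 h replicate 2 (adjusted p = 0.236). Ajuba, whose LIM protein inhibits LATS, read 592 and 641 units at 24 h, against 1291 and 1247 at 0 h (-1.02 ± 0.18, adjusted p = 0.00143). Rassf1, which encodes an MST-binding tumour suppressor, fell at 24 h (-0.93 ± 0.15, adjusted p = 0.000765) and did not pass earlier. Csnk1e, the gene of a casein kinase that marks YAP for degradation, fell most at 6 h (-0.80 ± 0.11, adjusted p = 0.000965). Lats1, the partner of Lats2, passed at 12 h alone (-0.51 ± 0.16, adjusted p = 0.043, and 0.204 without 12 h replicate 1). Genes that encode activators and inhibitors of YAP were thus both among those that fell.

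Of 17 other YAP/TAZ-TEAD target genes in the fit, 0 rose and 5 fell at 6 h, 2 rose and 6 fell at 12 h, and 4 rose and 5 fell at 24 h. At an unadjusted p below 0.05 in limma, 2 were higher at 6 h, 2 at 12 h and 4 at 24 h, with no share of all genes computed at that threshold. Their median log2 differences were -0.10, -0.06 and -0.15. Of all genes, 9.15% rose and 9.33% fell at 6 h, 13.3% and 12.0% at 12 h, and 18.6% and 16.6% at 24 h. Thbs1, the gene of the matricellular protein thrombospondin 1, read 1838 and 1741 units at 6 h, against 3806 and 3569 at 0 h (-1.03 ± 0.11, adjusted p = 0.000122). At 24 h it was closer to 0 h (-0.43 ± 0.11, adjusted p = 0.00924, and 0.103 without 24 h replicate 2). Edn1, which encodes endothelin 1, read 50.7 and 79.8 units at 12 h, against 252 and 248 at 0 h (-1.66 ± 0.25, adjusted p = 0.000917). The actin crosslinker genes Flna and Fscn1 fell by 0.68 ± 0.10 (adjusted p = 0.000378) and by 0.82 ± 0.10 (adjusted p = 9.36e-05) at 24 h. Marcks, an actin-binding kinase substrate gene, went the other way, with 6835 and 6764 units at 24 h, against 3439 and 2925 at 0 h (1.09 ± 0.11, adjusted p = 3.31e-05). The endocytic adaptor gene Dab2 rose alongside it (1.05 ± 0.11, adjusted p = 3.62e-05).

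SRF and its cofactor MRTF respond to actin and share targets with YAP, Ccn1 and Ccn2 among them. The SRF and MRTF list holds target genes and also Srf and Mrtfa themselves. Of its 16 genes in the fit, 0 rose at any time, and 5 fell at 6 h, 8 at 12 h and 9 at 24 h. Each gene was taken by its brightest probe set. Of all genes, 9.15% rose and 9.33% fell at 6 h, 13.3% and 12.0% at 12 h, and 18.6% and 16.6% at 24 h. Dimmer probe sets were called against the direction of the brightest in 2 genes named here after their values were seen. Tpm1 had 1 called higher at 6 h (0.94), where its brightest read -0.21 ± 0.09, and Myh9 had 1 called higher at 12 h (0.35), where its brightest read -0.23 ± 0.09. At 24 h Myh9 had 1 called lower, where its brightest read 0.01 ± 0.09 and its probe sets ranged from -0.39 to 0.24. Actb, also named after its values were seen, had a dimmer probe set at 0.96 at 12 h and 0.58 at 24 h. Its brightest read 0.17 ± 0.11 and 0.02 ± 0.11 at these times. By the brightest probe sets, 0 genes were higher at any of the 3 times in limma at an unadjusted p below 0.05 too. The share of all genes at that unadjusted threshold was not computed. The medians of the list were -0.18, -0.29 and -0.37. Cnn2, the gene of the actin-binding calponin 2, read 2255 and 2112 units at 24 h, against 4745 and 4403 at 0 h (-1.06 ± 0.09, adjusted p = 1.36e-05). Zyx, encoding the focal adhesion protein zyxin, was lowest at 12 h, with 479 and 490.2 units, against 1126 and 1226 at 0 h (-1.24 ± 0.10, adjusted p = 2.15e-05). At 24 h its probe sets ranged from -0.56 to 0.35. The LIM domain genes Fhl1 and Pdlim7 fell as well at 12 h (-1.04 ± 0.12, adjusted p = 0.000152, and -1.17 ± 0.19, adjusted p = 0.00126). Mrtfa itself fell by 0.64 ± 0.12 at 24 h (adjusted p = 0.00227). Srf fell at 6 h only by this test (-0.66 ± 0.15, adjusted p = 0.0111, and 0.1 without 0 h replicate 2), and its probe sets disagreed, from -0.66 to 0.19.

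Of the 10 CCN receptor genes in the fit, most that passed at 24 h rose. At 6 h 1 rose and 1 fell, at 12 h 4 rose and 2 fell, and at 24 h 6 rose and 3 fell, with medians of 0.17, 0.22 and 0.42. Of all genes, 9.15% rose and 9.33% fell at 6 h, 13.3% and 12.0% at 12 h, and 18.6% and 16.6% at 24 h. Igf2r, the mannose 6-phosphate receptor gene, read 5246 and 4887 units at 24 h, against 1597 and 1404 at 0 h (1.74 ± 0.10, adjusted p = 9.17e-07). Itgb5, the integrin beta 5 gene, rose by 1.01 ± 0.12 at 24 h (adjusted p = 0.000135). Notch1, which binds CCN3, rose most in the list, by 2.94 ± 0.17 at 24 h. The scavenger receptor gene Lrp1 rose by 0.64 ± 0.14 at 24 h (adjusted p = 0.00621, and 0.067 without 24 h replicate 1). In the other direction, the heparan sulfate proteoglycan gene Sdc4 fell at 24 h (-0.60 ± 0.12, adjusted p = 0.00298). The laminin receptor gene Itga6 fell at 12 h (-0.60 ± 0.12, adjusted p = 0.00531, and 0.0663 without 0 h replicate 1), and at 24 h its difference was 0.07 ± 0.12.

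Around Axl, 2 of the 3 TAM genes in the fit rose at 24 h, both of them ligand genes, and 1 fell. Of all genes, 18.6% rose and 16.6% fell at 24 h. The lowest adjusted p of the list before 24 h was 0.0805, for Pros1 at 12 h (0.41 ± 0.16). Gas6 read 371 and 335 units at 24 h, against 204 and 189 at 0 h (0.78 ± 0.15, adjusted p = 0.00209), and is also in the YAP target list. Pros1, the protein S gene, read 532 and 525 units at 24 h, against 257 and 222 at 0 h (1.08 ± 0.16, adjusted p = 0.000374). The 2 probe sets of the receptor gene Tyro3 ranged from -1.19 to -0.21 at 24 h. The brighter one read 22.4 and 69.8 units at 24 h, against 125 and 123 at 0 h (-1.19 ± 0.38, adjusted p = 0.0304). Without 24 h replicate 1 its difference was -0.67 and the adjusted p 0.252. Mertk stayed between 37.8 and 68.2 units and was not in the fit.

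**Figure D4:**
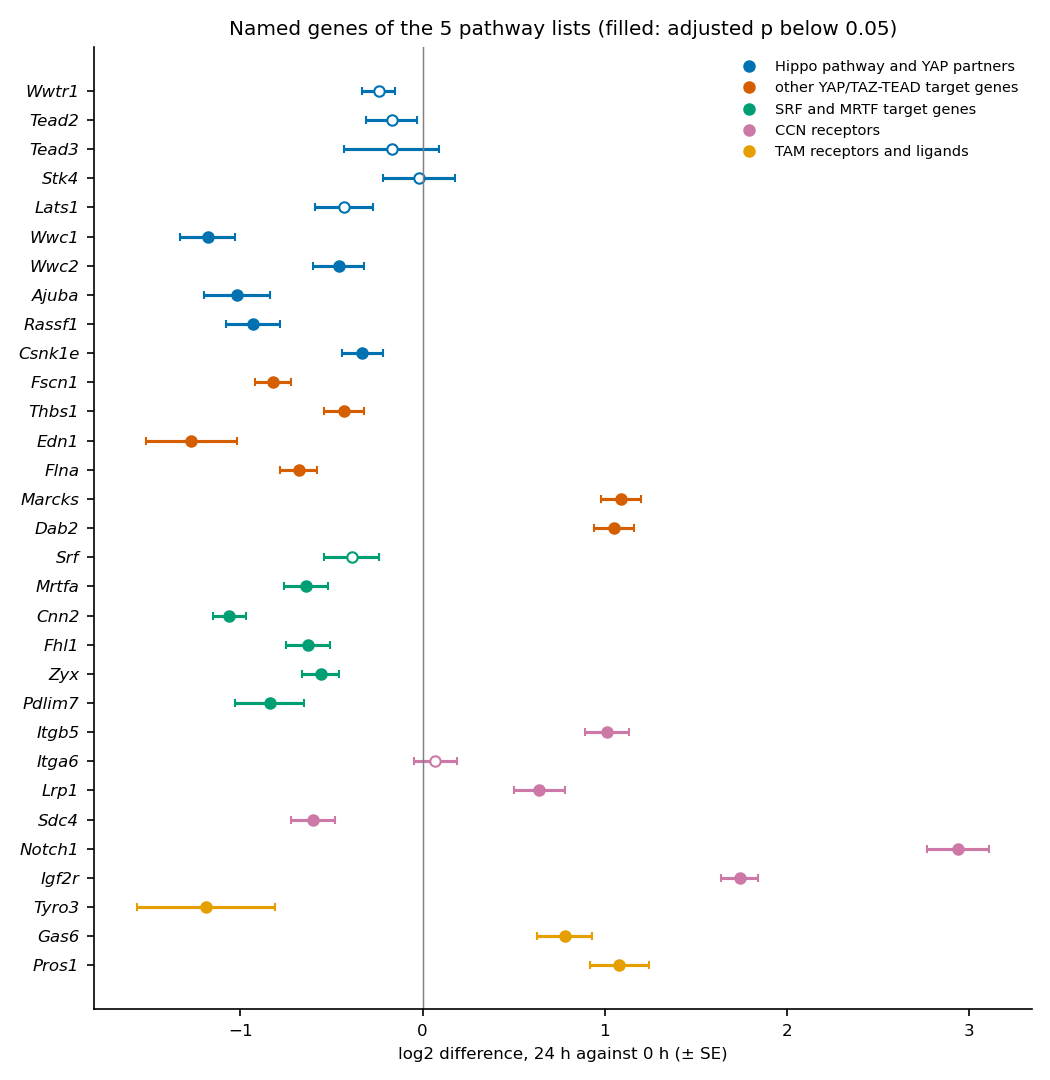
Log2 difference of 24 h against 0 h (horizontal axis, ± SE of the fit, 2 arrays per time) for the named genes of the 5 pathway lists, coloured by list, with filled points at adjusted p below 0.05. The 6 plotted SRF and MRTF genes, chosen as the called genes of their list with the largest changes, lie left of 0, while 4 of the 6 named CCN receptors and both TAM ligands lie right of 0 with filled points.

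Across the whole series, replicates correlated at r = 0.9815 to 0.9904 over probe sets, and median signals were 138 to 154 units. Of 16 Sertoli marker genes with a probe set, 9 passed the filter, among them Sox9, Wt1, Gata4 and Clu, while Amh (3.5 to 13.8 units), Fshr, Dhh and Rhox5 did not. The summed signal of the Sertoli markers was 9370 to 10237 units at 24 h, against 6878 to 6963 at 0 h. Most of that difference was Clu, with 3323 to 4205 units at 24 h, against 1337 to 1395 at 0 h, while Wt1 had 128.8 to 148.5 units at 24 h, against 162.1 to 179.8 at 0 h, and Inha and Nr5a1 overlapped between these times. Of the other cell types, 1 of 8 germ cell markers passed (Kit, with 1222 and 1225 units at 24 h, against 252.7 and 348.8 at 0 h), as did 1 of 4 Leydig, 2 of 6 myoid, 3 of 7 macrophage and blood, and 0 of 6 endothelial markers. The Leydig marker Star had 229.9 to 287.2 units at 24 h, against 74.6 to 134.5 at 0 h, and the macrophage marker Cd68 299.1 to 321 units, against 175.9 to 224.9. Csf1r, of the same list as Cd68, went the other way, with 120.2 to 125.2 units at 24 h, against 164 to 169.6 at 0 h. Cd14 overlapped between these times. The endothelial marker Pecam1, below the filter by its mean over all arrays, had 55.6 to 70.7 units at 24 h, against 9.5 to 10.9 at 0 h. Vwf, of the same list, went the other way, with 2 to 2.8 units at 24 h, against 7.5 to 30.8 at 0 h. The other endothelial markers overlapped between these times. The myoid markers, whose list includes actin genes that SRF drives, summed to 313.8 to 416.7 units at 24 h, against 318.5 to 395.2 at 0 h. The part of these markers in the results was not tested.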

How the data were processed

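RNA of the 8 TTE3 samples was hybridised to 1-colour Affymetrix mouse arrays. The deposited values are intensities per probe set, which the authors had already summarised and scaled: the mean after trimming 2% at each end was 500.18 to 500.20 on every array. The software is not given in the sources used here. Intensities ranged from 0.1 to 38130.2.

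Values were transformed as log2(intensity + 21.9), with no further normalization. After 64 control probe sets were set aside, 13576 of 22626 probe sets had a mean at or above the 40th percentile and were fitted with limma 3.58.1 in R 4.3.3, as 1 model of 4 times with a variance trend (4 residual and 7.22 prior degrees of freedom). The Benjamini-Hochberg adjustment covered all of these probe sets, with calls made at adjusted p below 0.05. The procedure was tested on simulated data. A gene is given by its brightest probe set with 1 symbol (20380 probe sets had 1, 691 several and 1555 none). What the p-values weigh is the spread between these 8 arrays, which may be technical.

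Members and lists were chosen with earlier results of these data known. Named list genes are the up to 6 called genes per list with the largest change, plus Wwtr1, the Tead genes, Lats1, Stk3, Stk4, Srf and the TAM receptors. The genes most like a member are the 3 with the highest r for members spanning at least 1 log2 unit. Alternatives were other offsets, filters and scalings, no variance trend, the replicate number as a block, only the times compared, and leaving out each array. Promoter windows are from RefSeq (GRCm38.p6).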

Additional observations from a re-analysis of the deposited data

How the results depend on the processing

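No log2 difference of a member moved by more than 1.5-fold under any alternative run, and none called by the fit changed sign, but 4 small differences of Yap1 and 2 of Lats2 changed sign when 1 array was left out (786 values moved by less than the spread between replicates and 39 by more). For the named list genes, 1419 results kept their side of the threshold, 114 lost it, 27 gained it and none reversed. Of the 69 list genes, 15 fell at 6 h, but 9 without a filter, 7 without a variance trend and 9 with only the 2 times in the fit. Without a variance trend 2 rather than 1 rose at 6 h. With 1 array left out, the number that rose at 6 h was 1 to 4 (4 without 6 h replicate 2) and the number that fell 4 to 19 (4 without either 0 h array). At 12 h 4 to 8 rose and 12 to 27 fell (12 without either 0 h array and 13 without 12 h replicate 2, against 23). At 24 h 9 to 13 rose and 15 to 26 fell (15 without 0 h replicate 2, against 23). The F-test called 25 to 47, against 36 with all arrays. The lone array of a time is then assumed to vary like the others. Deviations of arrays with the same number correlated at 0.0496 to 0.18, so the numbers were not taken to pair the arrays. With the replicate block, 17 fell at 6 h, 24 at 12 h and 26 at 24 h, and 40 passed the F-test. Centring arrays on their medians put 37.5% of the probe sets called at 24 h on the higher side, against 52% as deposited, and 40.4% at 12 h, against 50.5%, with 10 list genes higher and 28 lower at 24 h. With 2 arrays per time, signals near 21.9 units carry little information on direction.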
